A study of Mus musculus with 2 samples.

Results

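Tetraspanins are small membrane proteins that cross the membrane repeatedly and gather integrins, proteases and adhesion molecules into clusters known as tetraspanin-enriched microdomains. Several members also sort cargo into extracellular vesicles, and a subfamily called TspanC8 escorts the protease ADAM10 to the cell surface. In breast and other epithelial tumours the family has been studied mainly for its part in adhesion, migration and metastasis. Here their mRNA levels were compared between 4T1 cells with high and with low aldehyde dehydrogenase (ALDH) activity. The members were all non-control probes of the array named Tspan with a number, *Cd9*, *Cd37*, *Cd53*, *Cd63*, *Cd81*, *Cd82*, *Cd151*, *Upk1a*, *Upk1b*, *Prph2* or *Rom1*. This gave 31 genes with 45 probes, among 24325 named genes on the array.

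4T1 is a mouse mammary carcinoma line of BALB/C origin, and the cells were cultured without treatment. They were sorted by the ALDEFLUOR assay, which measures ALDH activity in living cells. Cells with high activity (ALDH-positive, labelled as cancer stem cells, S) and with low activity (ALDH-negative, labelled as anti cancer stem cells, NS) each gave 1 RNA sample, hybridised to 1 single-colour Agilent array. The sample labels name stem cell status only, and its match to ALDH activity comes from the study's description. A single line with 1 array per population gives no replicate spread and no test, so every difference below describes these arrays only. In such bulk RNA, fewer cells of a type and less RNA per cell cannot be told apart.

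Signals are quantile-normalized intensities, given first for ALDH-negative and then for ALDH-positive cells, and each log2 ratio sets the second over the first. A gene is measured if a probe was well above background on at least 1 array, and it is represented by its brightest probe (by mean log2 signal). Its error combines the errors the scanner software gives for both signals (median 0.21 over 28583 measured probes) and leaves out the spread between cultures. For bright probes this error is nearly constant (0.204 for *Cd9* and for *Itga6*), so being within it is there close to a fixed limit. A gene is called higher if its Z-score reaches 2.0 and its ratio 1.5, and lower if its Z-score reaches -2.0 and its ratio 0.75. For the Z-score, each log2 ratio was set against the probes nearest to it in signal (250 brighter and 250 dimmer ones), by their mean and SD. The ALDH-positive array was brighter before normalization, with a median log2 ratio of 0.49 over the measured probes, against 0.015 after it. The 5 epithelial markers *Krt8*, *Krt18*, *Krt19*, *Cdh1* and *Epcam* were all measured, with log2 ratios from 0.16 to 0.54 by their brightest probes. A second *Krt8* probe had 0.044. The summed signals of these markers were 324276 and 366801. Of 6 leukocyte markers 3 were measured (*Cd3e*, *Cd79a* and *Cd68*), while *Ptprc* and *Lyz2* were among those not well above background on either array. By their brightest probes, the measured markers lay on both sides of 0 and beyond their errors, *Cd3e* at -0.47, *Cd79a* at -0.32 and *Cd68* at 0.44. A second *Cd68* probe had 0.069. The summed signals of the list were 1773.3 and 1772.7. None of these markers was called, and their part in the results was not tested. Endothelial and fibroblast markers gave 1 measured gene of 3 (*Pecam1*) and 1 of 4 (*Col1a2*). The ALDH genes *Aldh3a1*, *Aldh3a2*, *Aldh3b1* and *Aldh5a1* were measured too, and none was called by its brightest probe (log2 ratios from -0.049 to 0.23). The dimmer *Aldh3a1* probe passed the limits, with signals of 811 and 1247 (log2 ratio 0.62, error 0.20, Z-score 2.76).

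Most tetraspanin genes had nearly the same signal in both populations, and *Tspan1* was the clear exception. Of the 31 genes, 23 were measured, each of them well above background on both arrays. Among these 23, 2 genes were called higher (8.70%), *Tspan1* and *Tspan15*, and none was called lower. Over all 14880 measured genes, 1.37% were called higher and 2.3% lower. The median log2 ratio of the tetraspanin genes was 0.032, beside 0.042 for all measured genes. Values above 0 were found for 15 of 23 tetraspanin genes (65.2%) and for 59.5% of all measured genes. The log2 ratio of 17 tetraspanin genes (73.9%) lay within its error of 0, as did 65.8% of all measured genes. The median of this error was 0.20 over the tetraspanin genes.

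*Tspan1* encodes a tetraspanin found in many epithelia. Its signals were 161 and 399, a ratio of 2.48. The log2 ratio was 1.31 with an error of 0.21, and the Z-score was 4.53. The log2 ratio ranked 220th from the top among all 14880 measured genes. Among the 13938 of them well above background on both arrays it ranked 18th. Before normalization the log2 ratio was 1.76. The gene had 1 probe of 60 bases, which the array files place on the minus strand of the mouse assembly NCBI37 at chr4:115835249-115835308. Of 205 measured probes within 10 rows and 10 columns of its spot, 1 was called higher, and their median log2 ratio was -0.019. The value of *Tspan1* thus stood apart from those of its neighbours on the array.

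*Tspan15* was called higher by 1 of its 2 probes. The gene encodes a TspanC8 tetraspanin and a partner of ADAM10. Its brighter probe had signals of 146 and 253, a ratio of 1.73 (log2 ratio 0.79, error 0.21, Z-score 2.66). The other probe had 79.0 and 81.4 (log2 ratio 0.043, error 0.22, Z-score 0.19). The probes thus disagreed by 0.75 on the log2 scale, the largest such gap among the 6 tetraspanin genes with several measured probes. The brighter probe, whose gene name comes from the array file alone, lies at chr10:61652579-61654248. This is a stretch of 1670 bases for a probe of 60, so its bases do not lie side by side in the genome. The dimmer probe lies at chr10:61648563-61648622, 3956 bases away on the same assembly and strand. The first 30 bases of the probes of both called genes, as the array files write them from 5′ to 3′, are shown to tell the *Tspan15* probes apart.

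Tspan1, single probe: aaggcacttacagcctgggcattttctaac
Tspan15, brighter probe: ggggtgccctacacctgctgcatcaggaac
Tspan15, dimmer probe: ctaaaaacccaacagaatgaccctcaaaat

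The position of the *Tspan15* spots on the array also differed. The brighter probe's spot lay in the last rows or columns of the array (those beyond 7 of every 8), an area in which 3.76% of measured probes were called higher, against 0.708% elsewhere. Of 219 measured probes within 10 rows and 10 columns of it, 21 (9.59%) were called higher and 16 lower, while around the spot of the dimmer probe 1 of 184 was higher. Of the 23 genes 6 had their main spot in that area, and the other 5 of these (*Tspan2*, *Tspan3*, *Tspan4*, *Tspan13* and *Tspan14*) had log2 ratios from -0.12 to 0.12. Of the epithelial markers, *Krt18*, *Cdh1* and *Epcam* also had their main spot there. The part of this position in the *Tspan15* value was not tested.

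**Figure D1:**
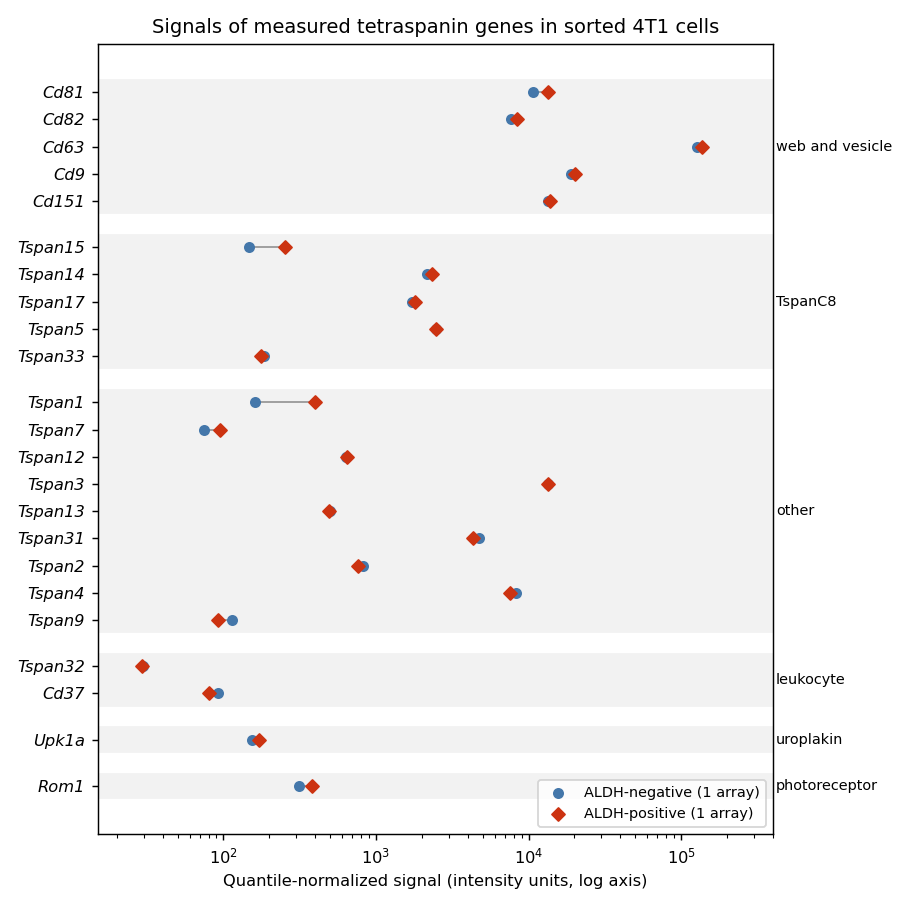
Quantile-normalized signal (horizontal log axis, intensity units) of each measured tetraspanin gene in ALDH-negative cells (circles) and ALDH-positive cells (diamonds), 1 array each, grouped by role. The points of most genes overlap, while *Tspan1* moves from 161 to 399 and *Tspan15* from 146 to 253.

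The tetraspanins of the cell surface web and of extracellular vesicles were all measured, and none of the 5 was called. *Cd9*, whose product associates with integrins and with immunoglobulin superfamily partners, had signals of 18976 and 20064 (log2 ratio 0.080, error 0.20). *Cd63*, which marks late endosomes and exosomes, had 127977 and 137409 (log2 ratio 0.10, error 0.20). *Cd81*, the companion of CD9 in many of its complexes, had 10728 and 13373 (log2 ratio 0.32, error 0.20). All 5 log2 ratios lay above 0, and only that of *Cd81* lay beyond its own error. Its Z-score of 1.59 was the highest among the genes not called, and its ratio of 1.25 missed the limit. *Cd82*, known as a metastasis suppressor, had 7635 and 8368 with its brightest probe (log2 ratio 0.13, error 0.20). *Cd151*, the partner of laminin-binding integrins, had 13442 and 13741 with its brighter probe (log2 ratio 0.032, error 0.20). The direction did not hold over the probes of both genes. The other *Cd82* probes had log2 ratios of 0.030 and -0.12, and the other *Cd151* probe had -0.15.

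Of the 6 TspanC8 genes, whose products bind ADAM10 and carry it out of the endoplasmic reticulum, 5 were measured. *Tspan15* was the only one called, as above. *Tspan14* had signals of 2151 and 2334 (log2 ratio 0.12), *Tspan17* had 1722 and 1804, a log2 ratio of 0.067, and *Tspan5* had 2456 and 2458 (log2 ratio 0.0011, error 0.20 each). *Tspan33* lay slightly below 0, with 185 and 177 and a log2 ratio of -0.063 (error 0.21). Dimmer probes of *Tspan17* and *Tspan5* gave 0.23 and 0.20. *Tspan10* was not well above background on either array. *Adam10* itself had 2510 and 2343 (log2 ratio -0.099, error 0.20), and was not called. With the brightest probe of each gene, the log2 ratios of the protease and of its measured escorts other than *Tspan15* thus lay between -0.099 and 0.12.

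**Figure D2:**
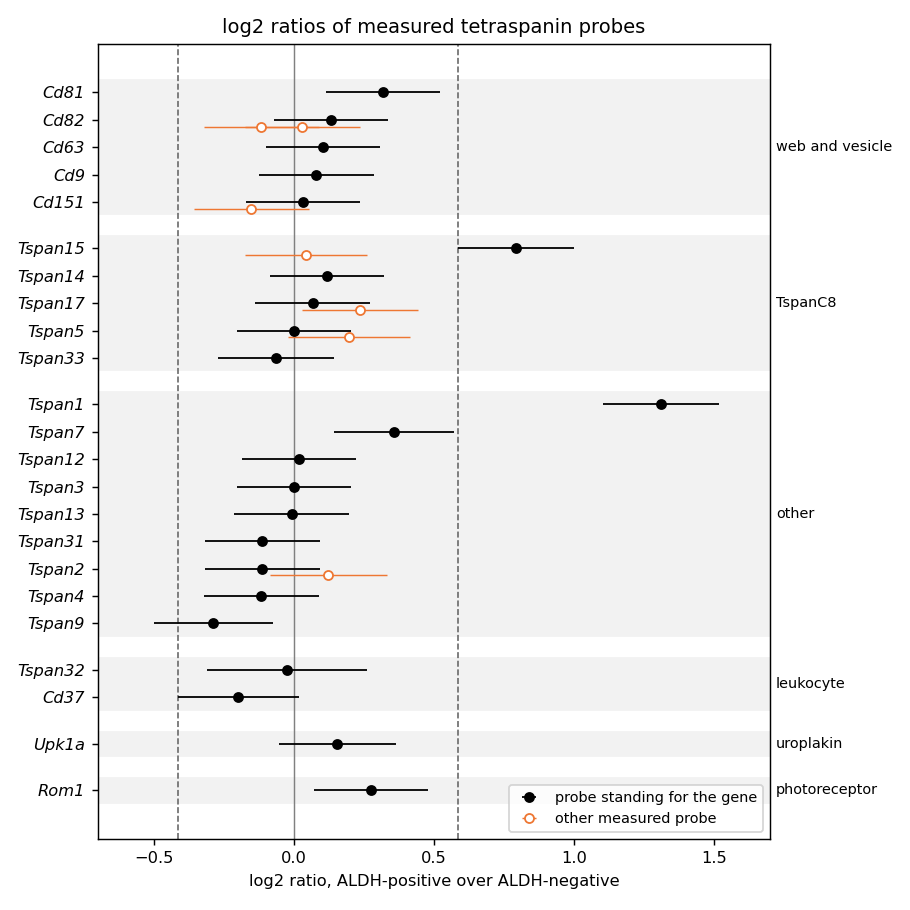
Log2 ratio of ALDH-positive over ALDH-negative cells (horizontal axis, 1 array each) for every measured tetraspanin probe, with the scanner software's errors as bars and dashed lines at the ratios 0.75 and 1.5. *Tspan1* lies at 1.31 and the brighter *Tspan15* probe at 0.79, while its other probe lies at 0.043.

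The remaining Tspan genes lay close to 0, on both sides of it. Besides *Tspan1*, 8 of them were measured and none was called. *Tspan7*, an X-linked gene known for its role in neurons, had signals of 74.5 and 95.4 (log2 ratio 0.36, error 0.21, Z-score 0.95), the highest after the called genes. *Tspan9*, a tetraspanin of platelets, had 113 and 92.7 (log2 ratio -0.29, error 0.21, Z-score -0.82), the lowest of all 23. These values lay beyond their own errors, yet both probes were dim and neither was past the limits. *Tspan3*, *Tspan12* and *Tspan13* had log2 ratios of 0.00050, 0.019 and -0.0081. TSPAN12 takes part in Norrin signalling through the receptor FZD4, and *Fzd4* had -0.026. *Tspan2*, *Tspan4*, whose product forms migrasomes, and *Tspan31* each had a log2 ratio of -0.11 or -0.12 (error 0.20 each), but a dimmer *Tspan2* probe had 0.12.

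Tetraspanins that are typical of other tissues were partly measured in these carcinoma cells. The leukocyte gene *Cd37* had signals of 92.2 and 80.3 (log2 ratio -0.20, error 0.22), and *Tspan32* had 29.9 and 29.4 (log2 ratio -0.025, error 0.29). Each value rests on 1 probe, as the other probes of both genes were not well above background on either array. *Cd53*, the third leukocyte tetraspanin, was not well above background, like *Ptprc*. *Upk1a*, which encodes uroplakin Ia of the urothelial plaque, had 155 and 172 (log2 ratio 0.16, error 0.21). The other uroplakin genes *Upk2*, *Upk3a* and *Upk3b*, and the related tetraspanin *Upk1b*, were not well above background in either population. *Rom1*, a tetraspanin of photoreceptor disc rims, had 314 and 379 (log2 ratio 0.28, error 0.20, Z-score 1.05), while its partner *Prph2* was not well above background. No gene of these groups was called.

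The 8 genes below background were *Cd53*, *Prph2*, *Tspan6*, *Tspan8*, *Tspan10*, *Tspan11*, *Tspan18* and *Upk1b*. No log2 ratio is given for them, since signals at this level have no order. *Tspan8*, which has often been studied in carcinoma, had 1 probe with a signal of 2.60 in both populations, and *Tspan6* had 1 probe with 2.93 in both. Over the 15 probes below background, of these and other members, the signals ran from 2.57 to 15.8.

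**Figure D3:**
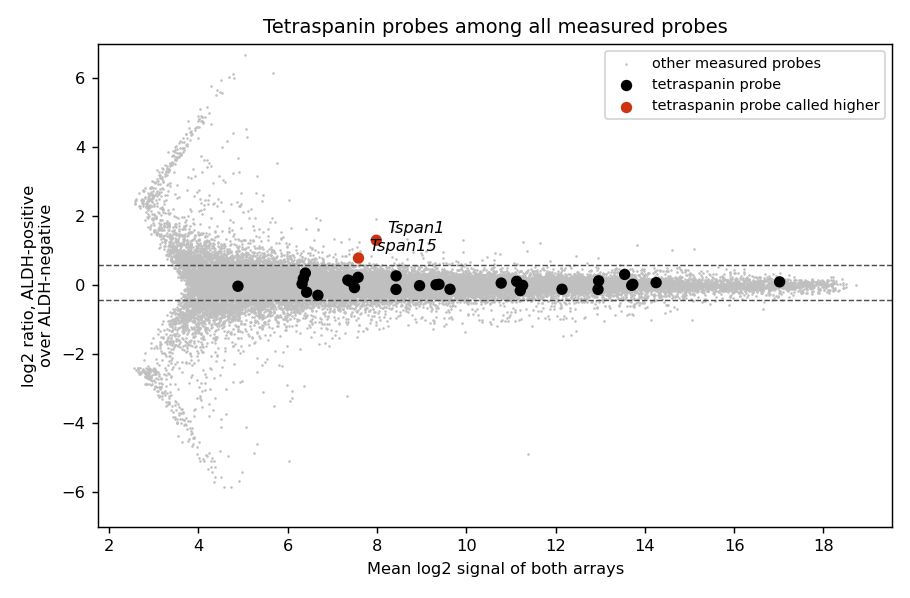
Log2 ratio of ALDH-positive over ALDH-negative cells (vertical axis) against the mean log2 signal of both arrays (horizontal axis) for the 28583 measured probes (grey) and the 30 measured tetraspanin probes among them (black, or red where called higher), with dashed lines at the ratios 0.75 and 1.5. The spread of all probes narrows with signal, and the called probes of *Tspan1* and *Tspan15* lie at mean log2 signals of 7.99 and 7.59.

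The brighter members varied less, as did the array as a whole. The 11 tetraspanin genes with a mean log2 signal of 10 or more had log2 ratios between -0.12 and 0.32, with none called and 9 above 0 (81.8%). Of all 6202 measured genes of that brightness, 61.1% lay above 0, 15 were called higher (0.242%) and 90 lower. The median absolute log2 ratio was 0.10 for the 11 genes, beside 0.092 for the 6202. The 12 dimmer genes held both calls and ran from -0.29 to 1.31, with a median absolute log2 ratio of 0.18, beside 0.21 for the 8678 dimmer genes. An absolute log2 ratio of 0.5 or more was found for 2 of the 12 (16.7%) and for 19.7% of the dimmer genes. These were the called genes, and 2.18% of the dimmer genes were called higher.

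Some of the genes lie beside each other in the genome. On the positions of the array files, *Cd151* and *Tspan4* have probes 22.0 kb apart on chromosome 7, with log2 ratios of 0.032 (-0.15 with the dimmer *Cd151* probe) and -0.12. *Tspan32* and *Cd81* lie 48.3 kb apart on the same chromosome, with -0.025 and 0.32. Of these values, that of *Cd81* alone lay beyond its own error. In the other close pairs, *Tspan11* beside *Tspan9* and *Tspan18* beside *Cd82*, only the second gene was measured. Chromosome 7 held 6 of the 31 genes and chromosome 6 held 5.

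Genes whose products are known to bind tetraspanins or to act with them in vesicle formation were described by a list of 25, of which 20 were measured. *Cldn7* was the only one called higher (1 of 20, beside 1.37% of all measured genes), and none was lower. Its product, the tight junction protein claudin-7, has been found in complexes with tetraspanins and EpCAM. *Cldn7* had 4183 and 7525, a ratio of 1.80 (log2 ratio 0.85, error 0.20, Z-score 4.20). These values come from 1 of its 2 probes, as the other was not well above background on either array. With Z-scores against the whole array its Z-score was 1.36 and the call was lost. *Epcam*, which encodes the adhesion molecule EpCAM, had 1256 and 1652 (log2 ratio 0.40, error 0.20). Its Z-score just reached 2.0, but its ratio of 1.32 missed the limit. The *Epcam* spot lay in the last rows or columns of the array. Without these, 15 partner genes were measured and *Epcam* was not among them. The other surface partners were close to 0. *Igsf8* and *Ptgfrn*, the immunoglobulin superfamily partners of CD9 and CD81, had 0.16 and -0.21 (error 0.20 each). The integrin genes *Itga3*, *Itga6*, *Itgb1* and *Itgb4*, whose products pair with CD151, had -0.10, -0.047, -0.011 and 0.16 (error 0.20 each), although a second *Itgb1* probe had -0.43. *Cd44* and the protease gene *Mmp14* had 0.13 and -0.046, and the other *Cd44* probes ran from 0.17 to 0.51.

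All 6 vesicle genes were measured and none was called. *Hgs* and *Tsg101*, which encode subunits of the ESCRT machinery, had log2 ratios of 0.23 and -0.10 (error 0.20 each). *Sdcbp* and *Pdcd6ip*, which encode syntenin and ALIX, had 0.035 and 0.11 (error 0.20 each), but the other *Sdcbp* probes had -0.44 and -0.28. *Rab27a* and *Rab27b*, whose products act in vesicle release, had 0.15 (error 0.24) and 0.20 (error 0.21), and a dimmer *Rab27b* probe had 1.0. Of the 8 tissue-specific partners, *Cr2*, *Fzd4* and *Lrp5* were measured, with 0.37 (error 0.31), -0.026 and -0.17 (error 0.21 and 0.20). *Ifitm1*, which encodes a partner of CD81 in lymphocytes, was not well above background.

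**Figure D4:**
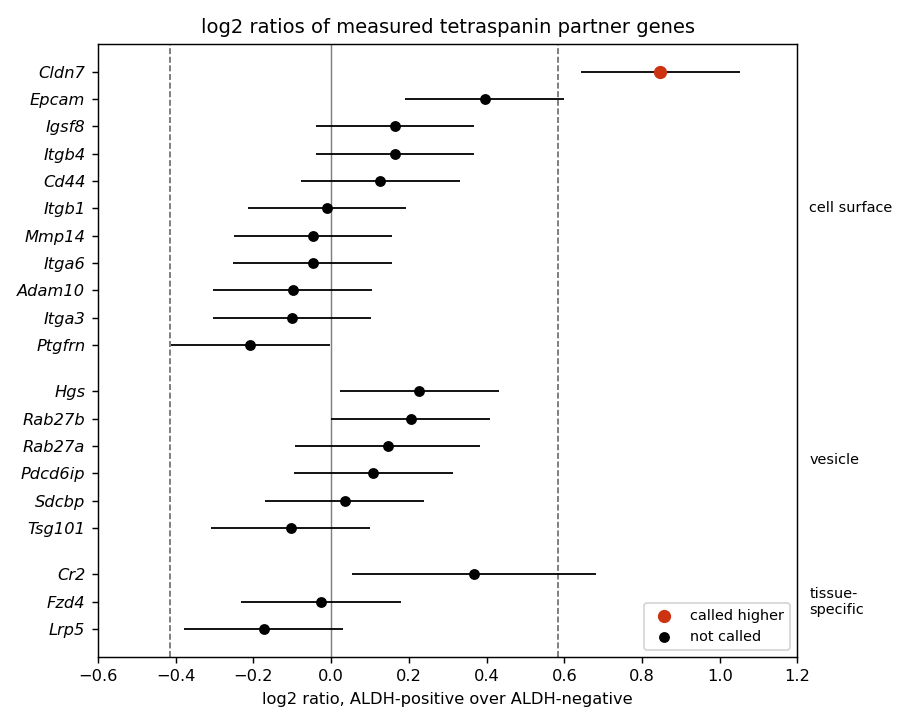
Log2 ratio of ALDH-positive over ALDH-negative cells (horizontal axis, 1 array each) for the 20 measured partner genes in 3 groups, each by its brightest probe. Bars are the scanner software's errors, and dashed lines mark the ratios 0.75 and 1.5. *Cldn7* lies at 0.85 (red, called higher) and *Epcam* at 0.40, and the other genes lie between -0.21 and 0.37. Some dimmer probes, not shown, lay outside this range, such as 1.0 for *Rab27b* and -0.44 for *Sdcbp*.

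*Tspan1* kept its call under every alternative, though several of them could not change its value. It had 1 probe, which was well above background on both arrays and lay outside the last rows and columns. Its log2 ratio ran from 1.05 to 1.31 under the 12 alternatives, and it was called higher in each. The value moved only with the 75th percentile shift (1.30), normexp (1.05), no background correction (1.05) and the deposited table (1.31). With Z-scores against the whole array its Z-score was 2.10, close to the limit. *Tspan15* was called in 9 of 12 and ranged from 0.043 to 0.80. None of the other 21 genes was called under any of them, although 4 genes had no probe left without the last rows and columns. Of the 23 genes, 19 kept the sign of their log2 ratio throughout, while *Cd151*, *Tspan2*, *Tspan3* and *Tspan13* took either sign.

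**Figure D5:**
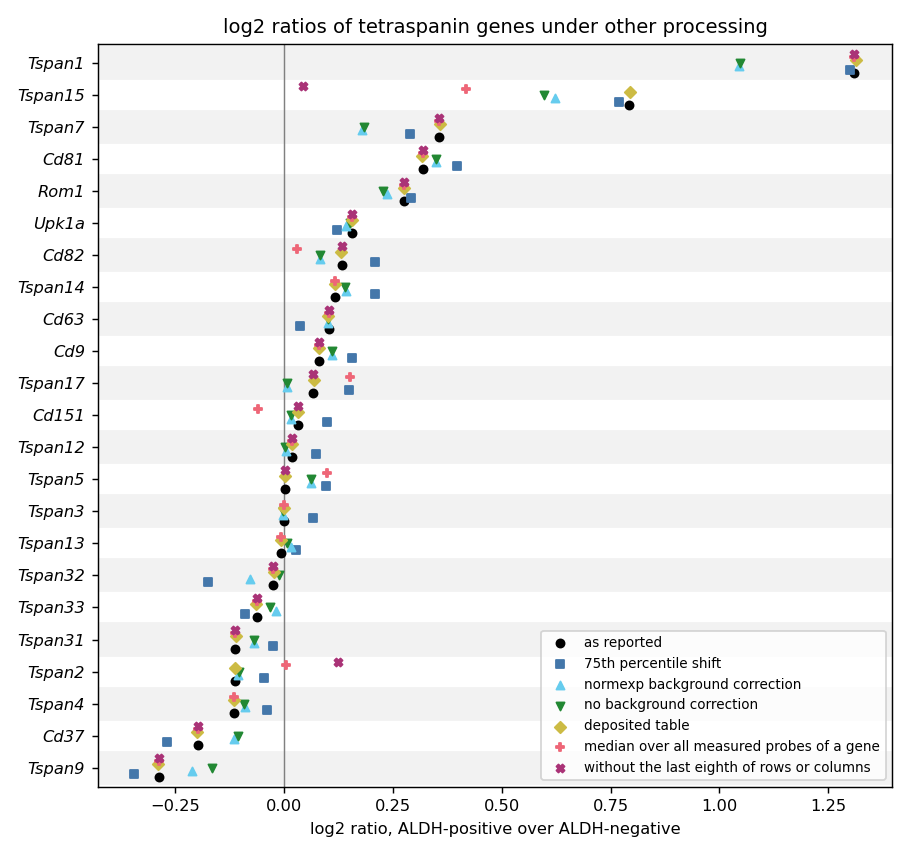
Log2 ratio of ALDH-positive over ALDH-negative cells (horizontal axis) for each measured tetraspanin gene as reported and under 6 other ways of processing (symbols). *Tspan1* stays at 1.05 or above, while *Tspan15* falls from 0.79 to 0.42 with the median of its probes and to 0.043 without the last rows and columns.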

How the data were processed

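RNA of ALDH-negative and ALDH-positive 4T1 cells was labelled with Cy3 by the authors and hybridised to 1 Agilent SurePrint G3 Mouse array each. Spot intensities were read by the authors in Feature Extraction of Agilent (9.5.1.1 by the submitters' processing notes, 10.7.1.1 by the header of the scanner files). They also deposited 1 table of quantile-normalized intensities. From the scanner files, processed (background-subtracted) intensities of non-control spots were used. Spots marked as population outliers or as non-uniform were left out, unless all spots of a probe were so marked. Among the members, the population mark touched 4 spots of *Upk1b* only. The log2 intensities of repeated spots were averaged, with a floor of 1, and quantile-normalized over 55681 probes.

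Over probes printed 10 times, the median SD between spots was 0.058 and 0.048 on the log2 scale. Precision is limited by the number of arrays. Symbols came from the RefSeq gene table (GRCm38.p6) where it held the accession, as for 42 of 45 member probes with no name changed, and otherwise from the array files. No test was made. Every tetraspanin gene was named, with values for each measured one, along with called partners and those farthest from 0. The counts of listed genes include 1 that is not reported here. The members and lists were chosen with earlier results of these data known.

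Alternatives were a 75th percentile shift, normexp correction (limma 3.58.1, offset 50), no background correction, the deposited table, stricter and no filters on dim probes, medians over probes, leaving out the last rows and columns, Z-scores over 100, 500 or all probes, and a ratio limit of 1.5 both ways. The selection was checked on simulated data, with changes set only in probes brighter than the called probes of *Tspan1* and *Tspan15*. The check thus does not cover signals as dim as theirs. Python 3.11.15 and R 4.3.3 were used.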

Additional observations from a re-analysis of the deposited data

How the results depend on the processing

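The number of tetraspanin genes called higher stayed at 2 except under 3 alternatives, each of which lost *Tspan15* and gave 1. They were a median taken across the probes of each gene (log2 ratio of *Tspan15* 0.42, Z-score 1.42), leaving out the last rows and columns of the array (0.043 from the other probe, with 19 genes measured) and Z-scores taken against the whole array (Z-score 1.27). The number called lower was 0 throughout. The median log2 ratio of the tetraspanin genes ran from 0.0074 with no filter on dim probes to 0.097 after a 75th percentile shift. The median of all genes moved likewise, to 0.015 and 0.084 under these settings. Among the partner genes the count of higher genes went from 1 to 0 with Z-scores against the whole array, which lost *Cldn7*, and none was lower under any alternative. No paired analysis was possible because each population had a single array, so no replicate could be left out. Over all measured genes, 204 were higher (1.37%). This count was 100 without background correction (0.672%), 111 with normexp (0.746%) and 111 with only probes above background on both arrays (0.796%). It was 102 without the last rows and columns (0.845% of 12072 genes) and 236 with Z-scores against the whole array (1.59%). The count of lower genes (342, 2.3%) was 219 without those rows and columns (1.81%) and 217 with Z-scores against the whole array (1.46%). Signals near background limit what can be said of the 8 genes not measured.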

Other observations

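The L6 family has the same number of membrane passes as tetraspanins but is not related to them by sequence, and none of its 3 measured genes of 4 was called. *Tm4sf1* had signals of 60653 and 63455 (log2 ratio 0.065, error 0.20), and *Tm4sf5* had 516 and 508 (log2 ratio -0.023, error 0.20). *Tm4sf4* was dim, with 18.9 and 24.0 (log2 ratio 0.34, error 0.37), and *Tm4sf20* was not well above background.

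The study turned on CLOCK, which binds the E-box CACGTG. RefSeq promoter sequences (GRCm38.p6, 250 bases before to 50 after the start) were at hand for 29 of the 31 tetraspanin genes, with 39 promoters in all. The motif, which reads the same on both strands, was found in 2 of the 39 (5.13%), 1 of *Cd37* and 1 of *Tspan4*, and in 7.15% of all 32851 promoters. Neither *Tspan1* nor *Tspan15* held it in this window. A match is a description of the letters and says nothing of binding.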
